A study of Mus musculus with 10 samples.

Results

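Nuclear long noncoding RNAs and the host genes of small nucleolar RNAs were followed in livers of mice 6 h after injection with CD95-Ab. The group was defined by name as Neat1, Malat1, Gas5, Snhg1, Snhg12, Snhg15 and Mir22hg, 7 genes in all, and 6 of them have an identifier among the 38922 genes of the tables. The identifier of Snhg1 in GENCODE M21 has no row in these tables, so Snhg1 was not analysed here. All 6 remaining genes passed the filter on low counts and were tested among 13719 genes. The mice were wild-type C57BL/6N males aged 6 weeks, 5 of which received saline and 5 CD95-Ab, an antibody that activates the death receptor Fas, at 0.5 µg per g of body weight into the peritoneum. The labels name no other allele or agent. Each library came from the bulk liver RNA of 1 mouse, with totals of 25965699 to 62097636 counts. In bulk tissue, fewer cells of a type and less RNA per cell cannot be told apart.

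These RNAs do not code for protein. Neat1 is made as a short polyadenylated form and as a long form that overlaps it, and the long form is the scaffold of paraspeckles, nuclear bodies built with proteins such as Sfpq, Nono and Pspc1. Malat1 lies beside Neat1 in the genome and is retained in nuclear speckles, where splicing factors collect. Gas5, Snhg1, Snhg12 and Snhg15 carry small nucleolar RNAs (snoRNAs) in their introns, which guide chemical modification of ribosomal and other RNAs, while the spliced host RNAs are in part degraded by nonsense-mediated decay. Mir22hg is the primary transcript of the microRNA miR-22.

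In GENCODE M21 (GRCm38), Neat1 spans chr19:5824708-5845478 on the minus strand and Malat1 chr19:5795690-5802672 on the same strand, 22035 bases away. Gas5 spans chr1:161034422-161038539 (plus strand), Snhg12 chr4:132308623-132311024 (plus), Snhg15 chr11:6525591-6528760 (minus) and Mir22hg chr11:75461539-75466676 (plus). Within the 7 genes, on their strand, 29 small RNA genes are annotated. Of these entries, 10 lie in Gas5, 8 in Snhg1, 5 in Snhg12, 3 in Neat1 and 1 each in Malat1, Snhg15 and Mir22hg. Snord80 in Gas5 and Snora16a in Snhg12 are each entered under more than 1 identifier at nearly the same position. The products that give the host genes their names are shown by 1 snoRNA of Gas5, 1 of Snhg12 and 1 of Snhg15 from the GENCODE M21 transcripts and by both arms of miR-22 from RefSeq (GRCm38.p6). Capitals mark the C box (TGATGA) and D box (CTGA) of Snord47, the ACA box of Snora16a and Snora9, and the seed, bases 2 to 8, of miR-22.
Snord47 (Gas5, chr1:161038082-161038158, plus strand): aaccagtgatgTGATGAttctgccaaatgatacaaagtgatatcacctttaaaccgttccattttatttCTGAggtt
Snora16a (Snhg12, chr4:132309465-132309600, plus strand): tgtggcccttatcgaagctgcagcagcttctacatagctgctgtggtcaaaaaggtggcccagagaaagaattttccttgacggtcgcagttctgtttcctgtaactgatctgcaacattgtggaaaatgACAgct
Snora9 (Snhg15, chr11:6528033-6528165, minus strand): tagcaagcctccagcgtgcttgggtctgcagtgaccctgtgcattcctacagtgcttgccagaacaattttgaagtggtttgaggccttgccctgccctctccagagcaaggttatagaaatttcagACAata
miR-22-5p (Mir22hg, chr11:75463734-75463755, plus strand): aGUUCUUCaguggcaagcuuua
miR-22-3p (Mir22hg, chr11:75463772-75463793, plus strand): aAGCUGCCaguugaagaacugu

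The libraries hardly contained these small products. Of the 29 small RNA genes, 27 had a row in the tables, 23 of these had 0 counts in every mouse and the other 4 had 13 counts in all. Snora44 had 6 counts and Snora16a 5, both inside Snhg12, while Snora9 inside Snhg15 and Gm25789 inside Gas5 had 1 each. The Mir22 gene and Snord47 had 0 counts. The values below are those assigned to the host genes, and changes of the small RNAs were not detectable in these libraries. Annotated exons cover 3760 of the 4118 bases of Gas5 and all 2402 of Snhg12. Reads from snoRNA sequence there could be assigned to the host, and their part in its level and length was not tested.

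The RefSeq promoters (250 bases before and 50 after a start, GRCm38.p6) held an entry for 6 of the 7 genes, Gas5 with 2 starts, and none for Neat1. They were searched on both strands for 5 motifs, the E-box CACGTG, the cyclic AMP response element (CRE) TGACGTCA, the AP-1 site TGANTCA, the composite C/EBP-ATF site TGATGCAA and the TATA box TATAAA. Snhg15 held 1 CRE, which begins at base -88 from the start, and 1 E-box, which begins at base 12. The downstream promoter of Gas5 held 1 CRE, which begins at base -46. Snhg1 held 1 match to the TATA box, which begins at base -29. There the strand of the gene reads TTTATA, so that TATAAA lies on the opposite strand. Of all 32851 promoters of this length, 1.79% held the CRE, 7.15% the E-box, 13.6% the TATA box, 7.81% the AP-1 site and 0.895% the C/EBP-ATF site. No letters of the 5 motifs were found in the windows of Malat1, Mir22hg and Snhg12 or at the upstream start of Gas5. The downstream Gas5 start opens with 5 pyrimidines and the Snhg12 start with 6, as do, with at least 5, 4.44% of all starts. The promoters of Snhg15, the member with the largest increase, of Gas5 with the other CRE, and of Mir22hg, the member that fell, are given with motif matches in capitals.
Snhg15 (chr11:6528711-6529010, minus strand): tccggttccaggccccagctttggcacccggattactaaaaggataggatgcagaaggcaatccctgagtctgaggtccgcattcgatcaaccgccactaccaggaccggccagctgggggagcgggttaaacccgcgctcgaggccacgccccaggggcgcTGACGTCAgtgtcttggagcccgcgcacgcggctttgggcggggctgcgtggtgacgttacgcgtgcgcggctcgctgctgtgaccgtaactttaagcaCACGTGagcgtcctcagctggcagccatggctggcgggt
Gas5 (chr1:161034916-161035215, plus strand): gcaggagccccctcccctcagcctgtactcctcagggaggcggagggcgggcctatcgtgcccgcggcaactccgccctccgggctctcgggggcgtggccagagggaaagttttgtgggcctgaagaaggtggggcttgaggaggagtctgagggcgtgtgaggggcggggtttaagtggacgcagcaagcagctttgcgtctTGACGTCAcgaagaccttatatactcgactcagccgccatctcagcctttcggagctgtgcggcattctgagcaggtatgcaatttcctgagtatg
Mir22hg (chr11:75461289-75461588, plus strand): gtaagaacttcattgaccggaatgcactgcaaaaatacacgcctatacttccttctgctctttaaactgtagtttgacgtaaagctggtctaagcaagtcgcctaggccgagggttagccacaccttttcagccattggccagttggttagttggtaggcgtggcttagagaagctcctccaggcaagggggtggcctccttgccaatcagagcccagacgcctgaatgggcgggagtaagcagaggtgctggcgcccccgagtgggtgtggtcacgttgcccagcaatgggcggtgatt

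At 6 h, Neat1 and Snhg15 rose, Mir22hg fell, and Malat1, Gas5 and Snhg12 did not pass the test. Levels are given as CPM, counts scaled to a TMM-adjusted library total of 1000000, in the order of replicates 1 to 5, and the test was edgeR's quasi-likelihood test with a false discovery rate (FDR) of 0.05 over all genes tested. The 2 increases and 1 decrease among 6 tested genes stand beside a background in which 25.4% of all tested genes were called higher, 22% lower and 47.3% in either direction. None of the 6 also reached a log2 fold change of 2 in size, which 6.59% of tested genes did upwards, 1.11% downwards and 7.7% in either direction. Over all 547 long noncoding RNAs tested, 84 were called higher and 127 lower, with a median log2 fold change of -0.22, beside a median of 0.01 over all genes.

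The Neat1 level was 148, 205, 139.8, 143 and 253 CPM in saline-injected mice and 379, 307, 362, 617 and 335 CPM after CD95-Ab. Every mouse given CD95-Ab lay above every control, and replicate 4 stood well above the other 4 treated mice. The mean rose from 177 ± 49.7 to 400.0 ± 124 CPM (SD, n = 5 per group), a log2 fold change of 1.17 with a standard error (SE) of 0.23 (edgeR, FDR = 0.00149, 95% interval 0.67 to 1.68). Such separation upwards was seen in 18.6% of all tested genes. Without replicate 4 of the CD95-Ab group, the log2 fold change was 0.94 (edgeR, FDR = 0.00299).

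Malat1, the neighbour of Neat1, had 393, 349, 274, 486 and 636 CPM with saline and 399, 289, 443, 404 and 631 CPM with CD95-Ab. The groups overlapped over nearly their whole range. The means were 427 ± 140 and 433 ± 125 CPM (SD, n = 5 per group), and the log2 fold change of 0.02 (SE 0.25, edgeR, FDR = 0.955) had an interval from -0.52 to 0.56. Its sign turned under 3 other settings of the fit and without any of 5 single mice, in the range of -0.15 to 0.20. Frmd8os, 144 bases from Neat1 on its other side, had 8 counts in all.

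Because both RNAs were read in the same library, the number of Neat1 counts for each Malat1 count does not depend on the scaling of totals. It was 0.376, 0.587, 0.511, 0.294 and 0.397 in the controls and 0.948, 1.06, 0.817, 1.53 and 0.531 in mice given CD95-Ab. Malat1 had more counts than Neat1 in all 5 controls, and Neat1 had more counts than Malat1 in replicates 2 and 4 of the treated mice. Counts are not set to length, and a change in transcript length, given below for Neat1, also enters this ratio. Per length, Neat1 was above Malat1 in 3 of 5 treated mice, replicate 1 among them. Only treated replicate 5 lay within the range of the controls. The mean log2 ratio differed by 1.13 between the groups (exact permutation test, two-sided, p = 0.0159, adjusted p = 0.0216 over 15 pairs, n = 5 per group).

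**Figure D1:**
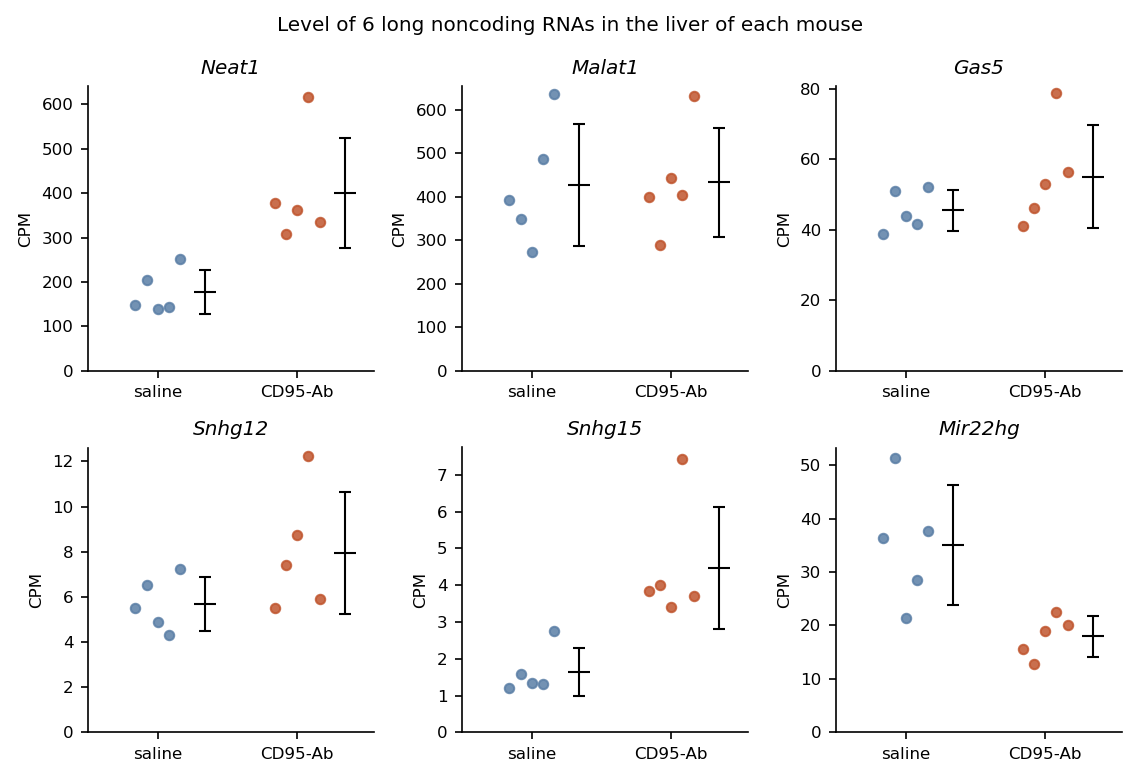
Level of each RNA in CPM (vertical axes, from 0) in the 5 saline-injected mice and the 5 mice injected with CD95-Ab, with 1 point per mouse and the mean with its SD at the right of each group. The groups do not overlap for Neat1 (139.8 to 253 against 307 to 617 CPM) and Snhg15 (1.199 to 2.76 against 3.42 to 7.42 CPM).

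Of the 3 snoRNA hosts measured, only Snhg15 passed the test. Its level was 1.199, 1.60, 1.35, 1.31 and 2.76 CPM in controls and 3.85, 4.01, 3.42, 7.42 and 3.70 CPM after CD95-Ab, so that the groups did not overlap, although control replicate 5 and treated replicate 4 each stood above the rest of their group. The mean rose from 1.64 ± 0.642 to 4.48 ± 1.66 CPM (SD, n = 5 per group), a log2 fold change of 1.43 (SE 0.29, edgeR, FDR = 0.00177, 95% interval 0.79 to 2.06). With at most 149 counts in a control library and 184 in a treated one, Snhg15 was the most thinly counted of the 6. Without treated replicate 4 the log2 fold change was 1.15 (edgeR, FDR = 0.00428).

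Gas5, host of Snord47 shown above, had 38.7, 51.0, 44.0, 41.5 and 52.1 CPM with saline and 40.9, 46.1, 52.96, 78.7 and 56.3 CPM with CD95-Ab. Treated mice lay both inside and above the control range. The means of 45.4 ± 5.85 and 55.0 ± 14.5 CPM (SD, n = 5 per group) gave a log2 fold change of 0.28 (SE 0.17, edgeR, FDR = 0.209, 95% interval -0.10 to 0.65). Without treated replicate 4 it was 0.09. The start of Gas5 shares 428 bases with Zbtb37 on the opposite strand, and strand use in counting is not given in the sources used here.

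Snhg12 hosts H/ACA snoRNAs and the C/D snoRNA Snord99. It had 5.53, 6.52, 4.87, 4.31 and 7.25 CPM with saline and 5.52, 7.42, 8.75, 12.2 and 5.91 CPM with CD95-Ab. Only 3 of the 5 treated mice exceeded the highest control. The means of 5.69 ± 1.195 and 7.96 ± 2.71 CPM (SD, n = 5 per group) gave a log2 fold change of 0.48 (SE 0.23, edgeR, FDR = 0.106, 95% interval -0.02 to 0.98), and 0.25 without treated replicate 4. For Gas5 and Snhg12 the intervals leave room for both no change and a moderate increase.

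Mir22hg was the only one of the 6 that fell. It had 36.3, 51.3, 21.5, 28.5 and 37.7 CPM in controls and 15.6, 12.8, 18.9, 22.4 and 20.0 CPM after CD95-Ab. In 4 of 5 treated mice the level was below the lowest control, and replicate 4 lay just inside the control range. The mean went from 35.0 ± 11.2 to 17.9 ± 3.80 CPM (SD, n = 5 per group), 1.95-fold lower (log2 fold change -0.97, SE 0.22, edgeR, FDR = 0.00395, 95% interval -1.45 to -0.48). The gene span shares 4962 bases with Tlcd2 on the same strand, which encodes a membrane protein and had 58.9 ± 26.1 CPM with saline and 35.3 ± 11.4 CPM with CD95-Ab (log2 fold change -0.74, edgeR, FDR = 0.0663). In GENCODE M21, 206 of the 1924 exonic bases of Mir22hg are also exonic in Tlcd2. RSEM divides reads that match more than 1 gene, and the effect of that on the Mir22hg value was not tested.

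**Figure D2:**
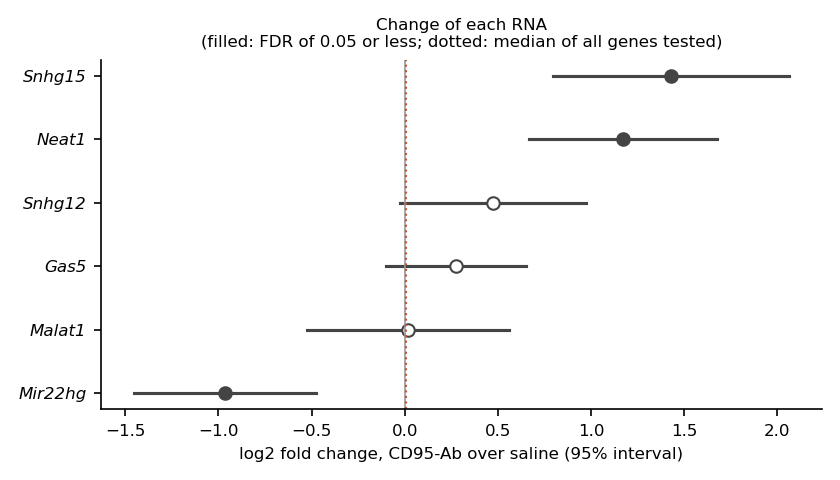
Log2 fold change of each RNA, CD95-Ab over saline (horizontal axis), with its 95% interval as a line, filled points for an FDR of 0.05 or less and the median of all genes tested as a dotted line. The intervals of Snhg15 (0.79 to 2.06), Neat1 (0.67 to 1.68) and Mir22hg (-1.45 to -0.48) do not reach 0, whereas those of Snhg12, Gas5 and Malat1 do.

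The unequal changes were compared within mice for all 15 pairs of the 6 RNAs. Of these, 11 differed in change (exact permutation test on the log2 ratio of counts, adjusted p of 0.05 or less over the 15 pairs). The share among pairs of all tested genes was not computed, and 47.3% of those genes were called in either direction. The 15 pairs share the same 6 RNAs, so they are not independent of each other or of the calls above. The widest gap was between Snhg15 and Mir22hg, whose log2 ratio rose by 2.38 (exact p = 0.00794, the smallest this design can give, adjusted p = 0.0119). Snhg15 also rose relative to its fellow snoRNA hosts, by 1.199 against Gas5 and by 0.999 against Snhg12, each with groups that did not overlap (exact p = 0.00794, adjusted p = 0.0119). The 4 pairs that did not pass were Neat1 with Snhg15 (log2 Neat1/Snhg15 lower by 0.28 with CD95-Ab, exact p = 0.0556, adjusted p = 0.0694), Malat1 with Gas5, Malat1 with Snhg12, and Gas5 with Snhg12. A ratio shows that 2 RNAs changed unequally and not which of them moved.

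**Figure D3:**
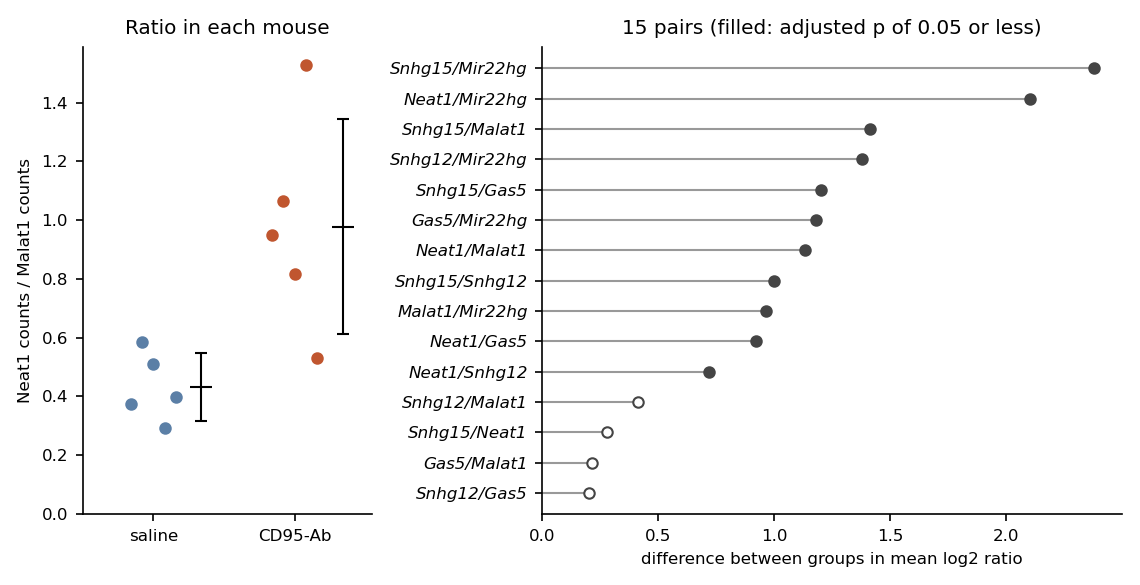
Left, Neat1 counts for each Malat1 count in each mouse (vertical axis, from 0), with the mean and SD of each group. Right, the difference between groups in the mean log2 ratio of each of 15 pairs, written so that the difference is positive, with filled points for an adjusted p of 0.05 or less, reached by 11 pairs, the largest being Snhg15/Mir22hg at 2.38.

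Levels of different RNAs can be set beside each other only per length, for which the FPKM of the tables were used (fragments per 1000 bases and 1000000 fragments). In saline-injected mice Malat1 was highest with 87.4 ± 22.9 FPKM, followed by Gas5 with 80.2 ± 9.71 FPKM, and these neighbours had this order in only 3 of 5 mice. Neat1 followed with 49.0 ± 8.82 FPKM, Mir22hg with 23.9 ± 9.24 FPKM, Snhg12 with 9.73 ± 1.79 FPKM and Snhg15 with 3.03 ± 0.851 FPKM (SD, n = 5), each above the next in 5 of 5 mice. After CD95-Ab the means of Neat1 (89.6 ± 23.8 FPKM), Malat1 (86.1 ± 24.9 FPKM) and Gas5 (77.0 ± 13.5 FPKM) were close, and each neighbouring pair had this order in only 3 of 5 mice. Snhg12 (11.6 ± 2.61 FPKM) and Mir22hg (11.1 ± 1.81 FPKM) were likewise in this order in 3 of 5 mice, and Snhg15 with 7.87 ± 2.23 FPKM (SD, n = 5) was lowest in all 5. The mean of Gas5 was higher with CD95-Ab than with saline in CPM and lower in FPKM, so the direction of that difference, which passed no test, depends on the scale.

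Both scales together also give the mean length of the transcripts counted. RSEM divides by the mean effective length of the transcripts of a gene, weighted by their abundance, and count, FPKM and library total together return that length. For 181 genes with a single annotated transcript, it was 52.5 to 63.4 bases under the annotated length (median per mouse). The annotation holds 4 Neat1 transcripts, the longest of 20771 bases and the next of 3004 bases. In the controls the Neat1 length was 3942, 4039, 3407, 3309 and 3687 bases, and in treated mice 4289, 4121, 4985, 4180.1 and 4046 bases. All treated mice lay above all controls, although the highest control and the lowest treated mouse differed by only a few bases. The mean rose by 17.6%, from 3677 ± 320.0 to 4324 ± 380.0 bases (SD, n = 5 per group, exact permutation test, p = 0.00794, adjusted p = 0.0238 over 6 RNAs).

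Among 7903 genes with several transcripts, the median change of this length was 0.07%. The groups separated upwards in 1.24% and downwards in 1.47%, and 0.367% of genes lengthened by at least as much as Neat1. If no Neat1 transcript other than the longest exceeds 3004 bases, the 20771-base transcript made up at least 2.02% to 6.16% of Neat1 molecules in the controls and at least 6.19% to 11.5% after CD95-Ab. These are lower bounds from the stated annotation and not measured shares, since the sources used here name no mouse annotation release. Whether reads from incompletely processed or degraded RNA take part in them was not tested.

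Snhg12 and Gas5, which did not pass the test for level, also had longer means. Snhg12 went from 601 ± 26.7 to 652 ± 11.5 bases, an increase of 8.55% without overlap (575 to 630.3 against 636 to 665 bases, exact permutation test, p = 0.00794, adjusted p = 0.0238, n = 5 per group). Gas5 went from 584 ± 33.4 to 686 ± 53.2 bases, an increase of 17.4% (exact permutation test, p = 0.0159, adjusted p = 0.0317, n = 5 per group), with treated replicate 3 at 615 bases inside the control range of 549 to 631 bases. Of the 25 Gas5 transcripts in the annotation, the longest, of 2556 bases, is listed as a retained intron. Malat1 (-1.58%), Snhg15 (-0.33%) and Mir22hg (1.39%) gave exact permutation p of 0.77, 0.817 and 0.437 (n = 5 per group).

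**Figure D4:**
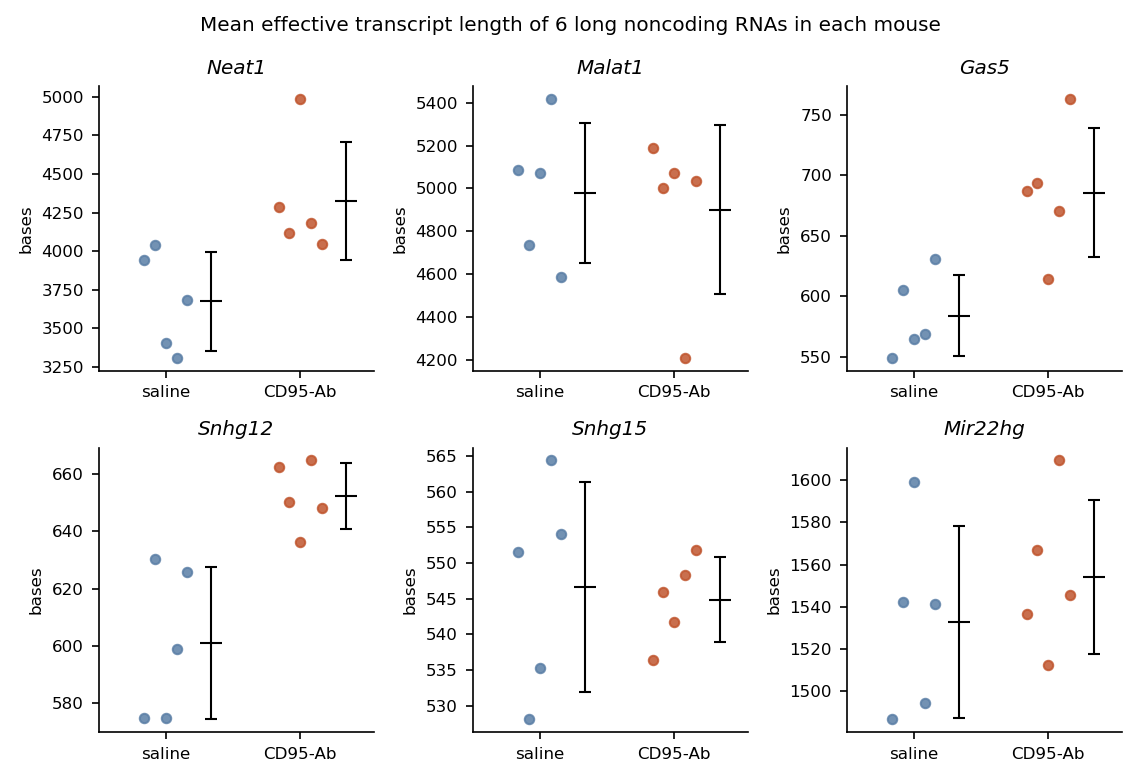
Mean effective transcript length of each RNA in bases (vertical axes, which do not start at 0), 1 point per mouse, with the mean and SD of each group. Treated mice lie above controls without overlap for Neat1 (3309 to 4039 against 4046 to 4985 bases) and Snhg12, and overlap at 1 mouse for Gas5.

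Protein partners of these RNAs were read from the same fit. Of 32 paraspeckle proteins tested, 8 rose and 6 fell, which is 25% and 18.8% beside 25.4% and 22% of all tested genes, with a median log2 fold change of 0.09. These shares are near those of all genes, so the counts set the list apart in neither direction. Among those that rose were Pspc1 (log2 fold change 1.11, 4.33 ± 1.10 to 9.39 ± 1.09 CPM, edgeR, FDR = 4.48e-04), Sfpq (0.81, 40.0 ± 1.81 to 70.3 ± 5.86 CPM), Rbm3 (0.87) and Hnrnpa1 (0.77). Sfpq and Pspc1 belong, with Nono, to the family of proteins that bind the paraspeckle scaffold directly, and Nono had a log2 fold change of -0.20 (SE 0.13, edgeR, FDR = 0.230). Rbm4b (-0.93), Zc3h6 (-0.73), Ss18l1 (-0.70) and Hnrnph3 (-0.69) were the largest decreases. Without control replicate 4 the number that rose was 5.

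In nuclear speckles, the home of Malat1, 7 of 30 proteins tested rose and 2 fell (median 0.13). The 23.3% that rose is near the 25.4% of all tested genes, and the 6.67% that fell is below their 22%. Those with the largest increases were Srsf3 (log2 fold change 0.81), Srsf7 (0.80), Rnps1 (0.51) and Srsf1 (0.36), all splicing factors or their partners, and the decreases were Srrm2 (-0.46) and Srsf5 (-0.36). These counts rested on single mice. The number that rose was 4 without control replicate 1, control replicate 4 or treated replicate 2 and 12 without control replicate 5. The number that fell was 0 without treated replicate 2, 1 without control replicate 1, control replicate 2 or treated replicate 3, and 4 without treated replicate 5.

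Of 19 proteins that build or assemble snoRNA particles, 11 rose (57.9%, beside 25.4% of all tested genes) and 1 fell (5.26%, beside 22%). The median was 0.42. Nop58, a core protein of C/D particles, went from 15.1 ± 2.13 to 44.3 ± 4.40 CPM (log2 fold change 1.56, edgeR, FDR = 2.67e-06). Gar1 (1.28), a core protein of H/ACA particles, and their assembly factor Naf1 (1.05) rose as well, as did Nop56 (0.94), the partner of Nop58. The 1 decrease was Pih1d1 (-0.36), a subunit of an assembly chaperone, and it was lost without control replicate 2 or 3 or treated replicate 2 or 5, while 2 proteins fell without treated replicate 4. The number that rose stayed between 8 and 11 with any 1 mouse left out.

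Host RNAs beyond the named ones were read as well. Of 10 other snoRNA host RNAs tested, 2 rose (20%, beside 25.4% of all tested genes) and none fell, with a median of 0.08. They were Snhg16 (2.25 ± 1.07 to 5.09 ± 1.36 CPM, log2 fold change 1.16, edgeR, FDR = 0.00623) and Snhg17 (0.94, edgeR, FDR = 0.00168). Without treated replicate 4, 1 of the 10 fell. Of 22 factors of nonsense-mediated decay tested, 7 rose (31.8%, beside 25.4% of all tested genes) and 3 fell (13.6%, beside 22%, median 0.14). Magohb (0.91), Xrn1 (0.80), Smg1 (0.55) and Magoh (0.54) were the largest increases, and Upf3b (-0.81), Smg6 (-0.65) and Pnrc2 (-0.57) the decreases, whereas the helicase Upf1 had -0.25 (edgeR, FDR = 0.163). The number of these factors that rose was 4 without control replicate 1, 2 or 4 or treated replicate 2.

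Of 4 tested genes listed as microRNA hosts besides Mir22hg, 3 rose (75%, beside 25.4% of all tested genes). None fell with all mice kept, and 1 fell without treated replicate 4 or 5. The 3 were Mir17hg (log2 fold change 1.42), Mir100hg (0.76) and Mirt1 (2.74), a long noncoding RNA not known as a microRNA host. Of 11 other well known long noncoding RNAs tested, 4 rose (36.4%, beside 25.4%) and 3 fell (27.3%, beside 22%), with a median of -0.25. Morrbid (2.56), Rian (1.505), Pvt1 (1.13) and Meg3 (1.04) rose and Jpx (-1.46), Oip5os1 (-0.77) and Tug1 (-0.50) fell. Morrbid (0.115 to 0.296 CPM in controls) and Mirt1 (0.141 to 0.504 CPM) passed the filter on low counts only through the treated mice. Each is counted in the share of its list that rose. Mir22hg is a known target of p53. Of 22 p53 targets tested 11 rose (50%, beside 25.4% of all tested genes) and 2 fell (9.09%, beside 22%), with a median of 0.74. Btg2 (3.25), Cdkn1a (3.19), Pmaip1 (3.07) and Gdf15 (2.55) had the largest increases, and Ei24 (-0.91) and Perp (-0.68) fell. Mir22hg thus moved opposite to the larger number of called genes in the microRNA host and p53 lists.

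**Figure D5:**
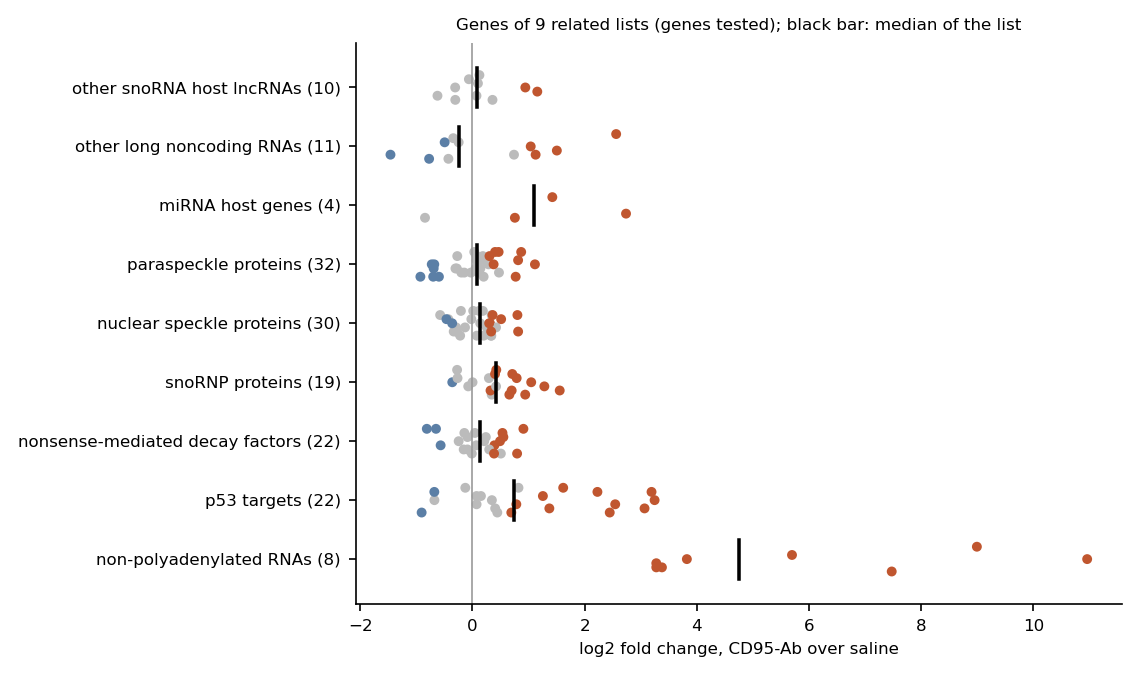
Log2 fold change, CD95-Ab over saline (horizontal axis), of the tested genes in 9 related lists, 1 point per gene, coloured orange or blue where it was called higher or lower and grey otherwise, with the median as a black bar. Paraspeckle and nuclear speckle proteins lie on both sides of 0 (medians 0.09 and 0.13), snoRNP proteins lie mostly above (0.42), and Snora81, listed at 0 in all controls, has a fitted value that depends on the prior count.

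Nearest neighbours of the host genes did not share one direction. Myo1g, a myosin of blood cells 4625 bases from Snhg15, went from 1.56 ± 0.858 to 8.93 ± 1.24 CPM (log2 fold change 2.51, edgeR, FDR = 9.21e-05), while Ccm2 on the other side of Snhg15 had 0.14 (edgeR, FDR = 0.386). Wdr81, 6821 bases from Mir22hg, fell from 40.2 ± 3.79 to 14.3 ± 2.54 CPM (-1.49, edgeR, FDR = 5.56e-06). Slc3a2 (0.86) and Wdr74 (0.42), on either side of Snhg1, rose. Zbtb37 beside Gas5 (-0.46, edgeR, FDR = 0.0930) and Trnau1ap beside Snhg12 (-0.20, edgeR, FDR = 0.215) did not pass the test, and Rab42 beside Snhg12 had 7 counts in all.

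Across the 10 mice, the genes most like each member were sought by the correlation of log2 CPM among 12120 genes. Dlgap4 was closest both to Neat1 (r = 0.984) and to Snhg15 (r = 0.989), and after the group means were removed these were 0.937 and 0.957. Next for Neat1 were Med21 (0.983) and Gripap1 (0.978), and next for Snhg15 were the snoRNP protein gene Nop56 (0.986) and Zc3h7a (0.984). Prkab1 (0.982), Rps23 (0.973) and Ifnar2 (0.959) were closest to Snhg12, and Cyp21a1 (0.968) with its near-identical pseudogene Cyp21a2-ps (0.955) to Gas5, followed by a gene without a symbol. For Malat1 the highest values were lower, with Cep295 (0.887), 4930565N06Rik (0.885) and Gm15462 (0.861). Mum1 (0.973), a gene without a symbol and Pbx2 (0.950) were closest to Mir22hg. The points share libraries and treatment, and treated replicate 4 was the highest mouse for Neat1, Gas5, Snhg12 and Snhg15.

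Several measures of cell content and library make-up moved with the treatment. Over all tested genes, 25.4% were called higher and 22% lower. Of 7 hepatocyte markers 3 were lower (42.9%) and none higher. Their summed level of 103860 to 129240 CPM in controls and 48258 to 84922 CPM in treated mice is that of liver. Neutrophil markers (7, of which 4 were tested and all 4 higher) went from 3.81 to 9.95 CPM up to 93.9 to 366 CPM, and erythroid markers (5 of 5 higher) from 135 to 323 CPM up to 1063 to 33976 CPM. Of 7 macrophage markers 2 were higher (131 to 431 and 252.5 to 536 CPM), and this 28.6% is near the share of all tested genes. Lymphocyte (6 of 7, 85.7%, 1.07 to 3.64 and 4.58 to 9.84 CPM) and endothelial markers (4 of 5, 80%, 38.8 to 93.8 and 130.4 to 254 CPM) rose in part. Stellate cell (3 of 5, 60%, 130.5 to 170.6 and 291 to 445 CPM) and cholangiocyte markers (4 of 5, 80%, 18.3 to 33.8 and 48.3 to 186 CPM) did so too. The lymphocyte count was 3 without control replicate 5 and 0 with at least 10 counts required in every mouse, and the macrophage count was 1 without control replicate 3, 4 or 5 or treated replicate 1, 2 or 5. No marker was at 0 in all 10 mice.

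RNAs without a poly(A) tail, in whose company the long Neat1 form and Malat1 belong by the processing of their ends, took 1.89 to 4.56 CPM in controls and 381 to 1349 CPM after CD95-Ab. All 8 of the 24 in the tables that were tested rose, most of which passed the filter on low counts only through the treated mice, with a median log2 fold change of 4.76, or 4.15 with Snora81, at 0 in every control, set at its bound of at least 22.2-fold higher (floor of 3 counts in each library). The number called followed the filter, with 13 without a filter on low counts, 3 with at least 10 counts in every mouse and 8 to 11 with any 1 mouse left out. Rn7sk alone went from a mean of 0.392 to 742 CPM, and Rn7s1 and Rn7s2 are near-identical copies with the same values. Treated replicate 4 held the highest sum, 1349 CPM, and also the highest Neat1 and Snhg15. The sum lay above every control in all treated mice, so leaving out 1 mouse does not test its part. The part of any of these measures in the changes of Neat1, Snhg15 and Mir22hg was not tested.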

How the data were processed

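Livers of 10 mice were profiled by RNA sequencing, 5 after saline and 5 after CD95-Ab, and groups and replicate numbers came from the sample labels. The authors prepared libraries from 500 ng of total RNA with TruSeq reagents, read them as pairs of 100 bases and assigned reads to genes with RSEM 1.2.19, per the labels. Genome build, mouse annotation release and strand setting are not given in the sources used here. The authors deposited for each mouse an expected count per gene, not normalized, which was used as whole numbers, and an FPKM value per gene, scaled by RSEM for length and total.

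Symbols and positions came from GENCODE M21 (GRCm38), which matched 37606 of 38922 identifiers. Genes were kept by filterByExpr (minimum count 10), scaled by TMM and tested by quasi-likelihood in edgeR (version 4.0.16, R version 4.3.3), with Benjamini-Hochberg adjustment over 13719 genes. Calls needed an FDR of 0.05 or less. CPM refer to an adjusted total of 1000000, and 3 counts correspond to 0.0556 to 0.121 CPM, which covers counting error only. Pairs of members were compared on log2 ratios of counts plus 0.5 with two-sided exact permutation tests (smallest p 0.00794). The 21 pairs planned became 15 because Snhg1 has no row. Mean effective length was the count divided by FPKM and by total count, in matching units, and this measure was chosen after seeing the data. Its comparison over all genes used those with at least 50 counts and an FPKM of at least 1 in every mouse. The members were not filtered in this way, and Snhg15 had 48 counts in saline replicate 3 and 34 in saline replicate 4. Scripts were tested on simulated counts, and summaries used Python 3.11.15 with scipy 1.17.1 and pandas 2.3.3.

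Members and lists were chosen with earlier results of these data known. Every member is named, and in each list up to 4 genes called in each direction with the largest change, plus small RNAs inside members, nearest genes and the 3 genes most like each member among those with a mean of at least 1 CPM. Some of the nearest genes are not reported here. Nono and Upf1 were named after their values were seen. Alternatives were DESeq2 1.42.0, other factors, filters, prior counts and thresholds, a block for the replicate number, and leaving out single mice. Labels call the mice biological replicates.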

Additional observations from a re-analysis of the deposited data

Results flagged for a closer look

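Single mice stood apart in 5 of 24 sets of 5 mice, by a gap to the nearest mouse that exceeded the 95% limit of Dixon's test, which chance alone exceeds in about 1 of 20 sets. Neat1 in CD95-Ab replicate 4 had 617 CPM, against 307 to 379 CPM in the other treated mice. Snhg15 in the same mouse had 7.42 CPM, against 3.42 to 4.01 CPM in the others. Among controls, Snhg15 in saline replicate 5 had 2.76 CPM, against 1.199 to 1.60 CPM. The mean effective length of Neat1 in CD95-Ab replicate 3 was 4985 bases, against 4046 to 4289 bases in the other treated mice. That of Malat1 in CD95-Ab replicate 4 was 4209.9 bases, against 5002 to 5188 bases in the others.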

How the results depend on the processing

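The 2 members called higher and 1 called lower stayed at these numbers in all 20 other settings of the fit, DESeq2, other factors and filters, an FDR of 0.01 and each mouse left out among them. Over the 18 alternatives that give a fold change, the log2 fold change was 0.94 to 1.33 for Neat1, 1.15 to 1.71 for Snhg15 and -1.11 to -0.79 for Mir22hg, and the FDR of these calls was at most 0.0193. When the fold change limit was 1 in place of 2 on the log2 scale, 2 members were past both thresholds in place of 0, by the construction of the threshold. The log2 fold change of Malat1 was -0.065 with upper-quartile factors, -0.032 with totals only and -0.016 without a filter on low counts, and -0.15 to 0.20 with single mice left out, and the cause was not tested. These 3 settings moved the median of all genes to -0.07, -0.08 and 0.08. Changes in effective length with single mice left out ranged from -3.49% to 1.90% for Malat1 and -1.18% to 0.48% for Snhg15, and those of Neat1 (13.1% to 20.6%), Gas5 and Snhg12 kept their direction and an exact p of at most 0.0317.

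Correlations gave no clear sign that the replicate numbers of the labels pair the mice, although they cannot exclude it. Deviations from the group means correlated by 0.04 on average between mice of one number (-0.27 to 0.26), and 4 of 10 mice correlated best with their own number. A fit with the replicate block again called 2 members higher and 1 lower. The sign-flip test over replicate numbers called 0 of 15 pairs, since its smallest p is 0.0625, and the 11 pairs called otherwise were 11 to 12 with single mice left out and 11 with a pseudocount of 5.

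Among the lists, totals only gave 2 nonsense-mediated decay factors called higher in place of 7. Paraspeckle proteins called higher were 5 to 9 and nuclear speckle proteins called higher 3 to 12 over all settings. Non-polyadenylated RNAs called higher were 3 to 13, by the number of genes that each filter kept. Depth limits Snhg15, with at most 184 counts in a library, more than the other members, and the small RNAs inside the host genes could not be read.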
